A study of Rattus norvegicus and Homo sapiens with 12 samples.

Results

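Integrins are the receptors through which epithelial and carcinoma cells grip the extracellular matrix. The 10 subunit genes described here are ITGAV, its β partners ITGB3, ITGB5, ITGB6 and ITGB1, the α partners of ITGB1 (ITGA2, ITGA3, ITGA5 and ITGA6), and ITGB4, which pairs with ITGA6. They were listed by name, with no measured value in the rule, but with earlier results of these data known. All were found by Ensembl identifier among the 60107 genes of the human count table. Counts were high enough to test 9 of the 10, and ITGB6 was not tested.

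RNA was profiled from DU145, an established human prostate cancer cell line, in 3 parental libraries (F0) and 3 libraries of F2, the population recovered after repeated exposure to conditioned medium (CM) of human mesenchymal stem cells (MSCs). The labels give 2 rounds of 72 h in MSC CM for F2, while the description of the series gives 3 rounds with 48 h of recovery. Nothing says whether the 3 F2 samples were selected separately, so p-values measure only the spread between these samples, which may be technical. No genetic change or other agent separates the groups in the labels, and no library of F0 passaged in control medium was analysed here.

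Each integrin is a heterodimer of 1 α and 1 β subunit, and the pair sets the ligand. αV pairs read the RGD motif of vitronectin, fibronectin and osteopontin, α2β1 binds collagen, α3β1, α6β1 and α6β4 bind laminins, and α5β1 binds fibronectin. α6β4 anchors basal epithelial cells to laminin through hemidesmosomes, while most other pairs connect to actin through talin and kindlins. In prostate cancer, αVβ3 and the laminin receptors have long been studied in adhesion to bone and to basement membrane.

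The libraries were alike in depth. Counts in genes ranged from 16029876 to 16479239 in F0 and from 15879480 to 16217918 in F2. Mitochondrially encoded genes took 5.7 to 6.0% of them in F0 and 10.2 to 10.6% in F2, and reads outside genes were 9.60 to 10.0% of uniquely placed reads in F0 and 11.3 to 11.9% in F2. The part of these differences in the results below was not tested. Leaving out mitochondrially encoded genes kept every call among the members. That setting shifted log2 fold changes by a median of only 0.000823, so it could hardly change a call. In the cell type check, the keratins KRT8, KRT18 and KRT19 had mean levels of 278, 484 and 255 counts per 1000000 (CPM) in F0 and 328, 556 and 405 in F2, KRT7 fell from 603 to 511 CPM (log2 fold change −0.24, adjusted p = 3.15e-04), KRT5 was at 0, and CDH1, the epithelial cadherin, fell from 14.0 to 5.78 CPM (log2 fold change −1.27, adjusted p = 7.63e-07). Of 9 tested epithelial markers 4 rose and 3 fell, while over all tested genes 9.49% were called higher and 8.67% lower. The luminal prostate genes KLK2 and FOLH1 were at 0 in every library. Of 22 MSC markers, 7 were at 0 in all 6 libraries, among them THY1, LUM and POSTN, and the 15 that were too low to test summed to between 0.71 and 1.7 CPM in F0 and between 0.32 and 1.02 in F2. The summed level of all 22 was 227 to 254 CPM in F0 and 285 to 304 in F2, most of it NT5E, with 2 of the 7 tested markers higher and 2 lower, and its part in the results was not tested.

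Levels are given as CPM normalized by TMM, a scaling that makes the bulk of genes comparable. QuantSeq reads 1 fragment near the poly(A) tail of each transcript, so a CPM value stands in for transcript number and is not divided by gene length. How evenly different genes were captured was not measured, and PCR duplicates could not be removed. The ratios of transcripts between genes given below are therefore ratios of these counts. Fold changes are F2 against F0 on the log2 scale from the quasi-likelihood test of edgeR, with p adjusted by Benjamini-Hochberg over all 14316 genes tested and a threshold of 0.05. In this bulk RNA, fewer cells of a type and less RNA per cell cannot be told apart.

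Of the 9 tested subunits, 7 rose in F2 and 0 fell, and 2, ITGAV and ITGB1, did not pass the threshold. Over all tested genes 9.49% were called higher and 8.67% lower. No subunit of the 9 was lower at an unadjusted p under 0.05 either, and DESeq2 called 6 higher and 0 lower. In all 7 that rose, each F2 library was above each F0 library, a pattern seen in 16.9% of tested genes. The median log2 fold change of the 9 was 0.26, against −0.0025 for all tested genes. Because the members were chosen with earlier results of these data known, these shares and medians are descriptive and test no enrichment. The changes were small: ITGB3 alone passed 2-fold, and the other 6 that rose lay between 0.19 and 0.67 on the log2 scale. With scaling by library size alone, 5 of the 9 were higher and 0 lower, and the split over all genes moved from 1358 higher and 1241 lower to 832 higher and 2805 lower.

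**Figure D1:**
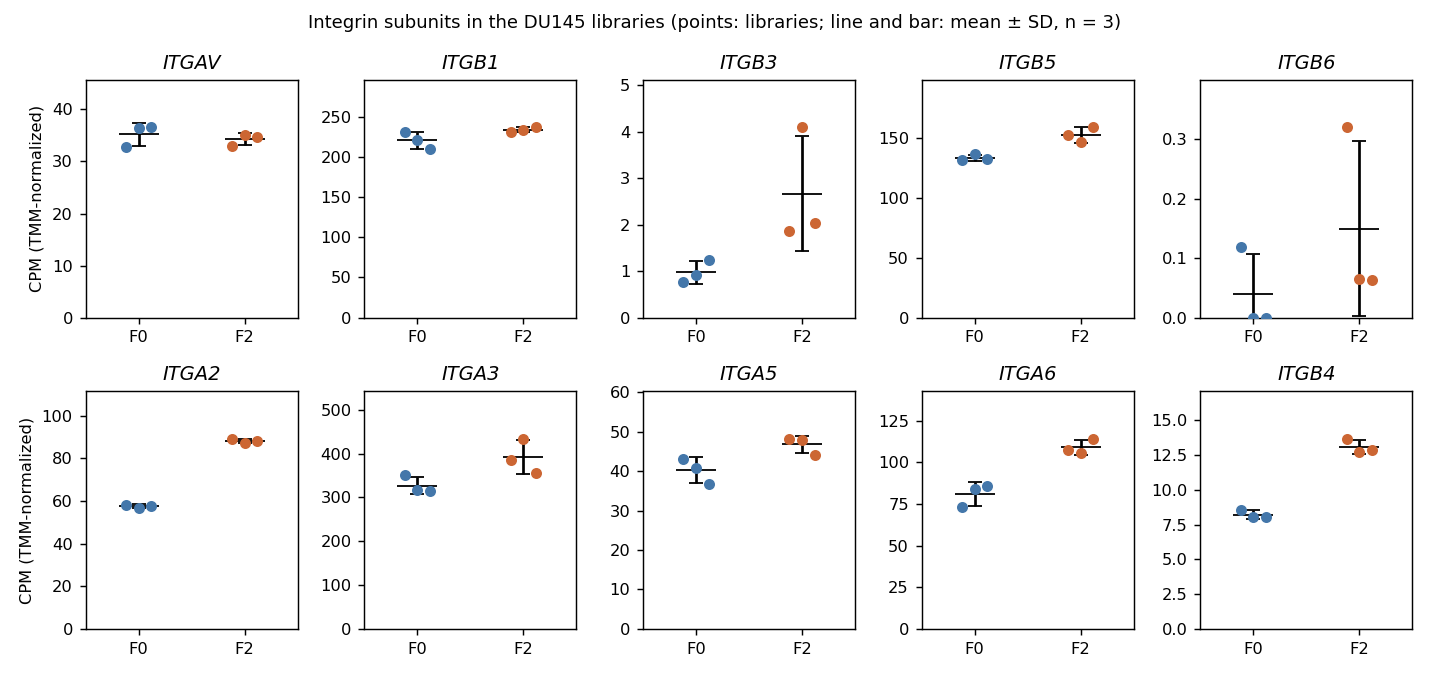
CPM (TMM-normalized, linear axes that start at 0 and differ between panels) of the 10 integrin subunits in 3 F0 and 3 F2 DU145 libraries, with points for libraries and a line and bar for the mean ± SD. The points of F0 and F2 overlap for ITGAV, ITGB1 and ITGB6 and are apart for the other 7 subunits.

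The fragments counted for each gene come from its 3′ end, and the last 30 bases of the annotated transcript are shown for the subunits whose levels the comparisons below turn on. They are read 5′ to 3′ on the strand of the gene from GRCh38 with GENCODE release 29, with the polyadenylation signal AATAAA, or its variant ATTAAA, in capitals where it occurs.
ITGAV (chr2:186680872-186680901, + strand): ctgtacAATAAAcataagcatatggtacca
ITGB3 (chr17:47311787-47311816, + strand): agaaagacttatcaacatttgttccatgag
ITGB5 (chr3:124761948-124761977, − strand): tgagaaaAATAAAtgtaattttggaagaaa
ITGB1 (chr10:32900392-32900421, − strand): ATTAAAtatgcctaaaatacttaaatcgga
ITGA2 (chr5:53094750-53094779, + strand): aagccattttctttgggcttttataagtta
ITGA3 (chr17:50090451-50090480, + strand): acggcgaccAATAAAcagctcccagtttgt
ITGA6 (chr2:172506201-172506230, + strand): tttcgtaacacagcattgtatatgtgaagc
ITGB4 (chr17:75757789-75757818, + strand): tgcacttAATAAAtggttttgctactgcta
Of all 10 subunits, 4 hold AATAAA in this window (ITGAV, ITGB5, ITGA3 and ITGB4), ITGB1 holds ATTAAA, and ITGB3, ITGB6, ITGA2, ITGA5 and ITGA6 hold neither. Over 62866 protein-coding transcripts, 40.03% hold AATAAA in the same window, and a further 10.05% hold ATTAAA without it. The search was on the transcript strand, and a transcript may end at another site in these cells, which the gene counts do not show. Rises were seen with and without the signal in the annotated window, in ITGB4 and ITGA3 on one side and in ITGA2 and ITGA6 on the other.

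ITGAV (ENSG00000138448, chromosome 2, 186590065 to 186680901) encodes αV, the subunit shared by the RGD-binding pairs. It was measured at 32.7, 36.5 and 36.6 CPM in F0 and at 32.9, 35.1 and 34.7 CPM in F2. The groups overlapped. The mean was 35.3 ± 2.21 CPM (SD, n = 3) in F0 and 34.2 ± 1.15 in F2, and the log2 fold change was −0.04 with a 95% interval of −0.19 to 0.11 (edgeR, adjusted p = 0.739). The interval spans 0 and is narrow beside the changes of ITGB3, ITGA2 and ITGB4.

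ITGB3 (ENSG00000259207, chromosome 17, 47253846 to 47311816) encodes β3, which with αV forms the vitronectin receptor of osteoclasts and of many invasive tumor cells. It was scarce in DU145, with 13, 15 and 21 counts in F0 and 29, 63 and 32 in F2. These correspond to 0.768, 0.908 and 1.24 CPM in F0 and 1.85, 4.09 and 2.04 in F2. Every F2 library was above every F0 library, and replicate 2 of F2 stood well above the other two. ITGB3 rose 2.72-fold (log2 fold change 1.44, SE 0.34, edgeR adjusted p = 0.00494), the largest change among the 9 tested subunits. Without replicate 2 of F2 it rose by 0.998 on the log2 scale (edgeR, adjusted p = 0.0458), still past the threshold. Even in F2 its mean level of 2.66 ± 1.24 CPM was below the 17.4 CPM of the median tested gene.

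ITGB5 (ENSG00000082781, chromosome 3, 124761948 to 124901418) encodes β5, which pairs only with αV and gives the other vitronectin receptor of epithelial cells. It was abundant, at 132, 137 and 132 CPM in F0 and 152, 146 and 159 in F2. The groups did not overlap, and the rise was modest. The mean went from 134 ± 2.58 to 153 ± 6.33 CPM (log2 fold change 0.19, SE 0.05, edgeR adjusted p = 0.00868). The call was lost without replicate 3 of F2 (log2 fold change 0.16, adjusted p = 0.0518) and with scaling by library size alone (0.10, adjusted p = 0.132).

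ITGB6 and ITGB8 encode β6 and β8, whose αV pairs bind latent TGF-β. ITGB6 (ENSG00000115221, chromosome 2, 160099666 to 160200313) had 2, 0 and 0 counts in F0 and 5, 1 and 1 in F2, at most 0.320 CPM in any library. Summed over libraries, 7 counts in F2 against 2 in F0 gave a ratio of 3.77 after scaling by TMM-normalized library size. Its exact 95% interval of 0.718 to 37.2 covers counting error only. A difference was not detectable at this depth. ITGB8, which is not among the 10, had 5, 5 and 9 counts in F0 and 3, 1 and 3 in F2. The ratio of its sums, scaled in the same way, was 0.397 (0.141 to 0.986, counting error only), with no test across libraries.

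ITGB1 (ENSG00000150093, chromosome 10, 32900319 to 33005792) encodes β1, the partner of αV and of most other α subunits in epithelial cells. Its level was 231, 221 and 211 CPM in F0 and 231, 234 and 237 in F2. The lowest F2 library lay below the highest F0 library. The log2 fold change was 0.08 with a 95% interval of −0.01 to 0.18 (edgeR, adjusted p = 0.246), and its sign turned with scaling by library size alone (−0.0079). The divergent transcript ITGB1-DT, which overlaps ITGB1 on the opposite strand, was looked at after its values were seen. It had 38, 35 and 34 counts in F0 and 66, 43 and 59 in F2 (log2 fold change 0.76, edgeR adjusted p = 0.0193). The handling of strand is not stated, and the part of ITGB1 reads in these counts was not tested.

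Set together, the β partners of αV were mostly ITGB1 and ITGB5 transcripts in both populations. ITGB1 made up 62.1% ± 1.23 (SD, n = 3) of the summed CPM of ITGB1, ITGB3, ITGB5, ITGB6 and ITGB8 in F0 and 60.1% ± 0.688 in F2. ITGB5 made up 37.6% ± 1.15 and 39.2% ± 0.975. Because ITGB1 also serves other α subunits, its share says little of αV alone, and without ITGB1 the partner pool was 99.0% ITGB5 in F0 and 98.1% in F2. ITGB3 held 0.721% ± 0.184 of that pool in F0 and 1.73% ± 0.858 in F2, with no overlap between libraries. Per ITGAV transcript there were 3.80 ± 0.217 ITGB5 transcripts in F0 and 4.46 ± 0.248 in F2, and 0.0274 ± 0.00571 and 0.0772 ± 0.0342 ITGB3 transcripts, both without overlap. So ITGB5 remained far above ITGB3 in F2 even after the larger relative rise of ITGB3. These ratios are of RNA, and which pairs form at the membrane was not measured.

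**Figure D2:**
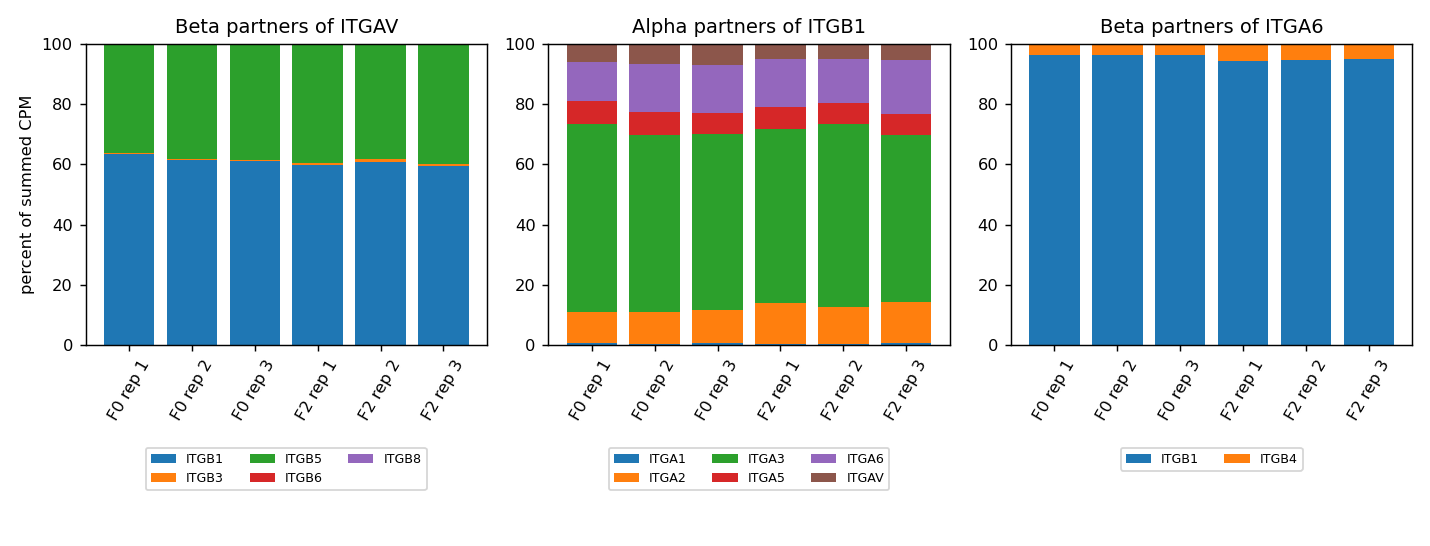
Share of each subunit in the summed CPM (percent, bars start at 0) of the β partners of ITGAV, the α partners of ITGB1 and the β partners of ITGA6, 1 bar for each of the 6 DU145 libraries. ITGB1 and ITGB5 fill nearly the whole bar of ITGAV partners, ITGA3 is the largest α share in every library, and the ITGB4 share goes from 3.59% in F0 to 5.30% in F2.

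Of the α partners of ITGB1 among the 10, ITGA2, ITGA3, ITGA5 and ITGA6 rose. ITGA2 (ENSG00000164171, chromosome 5, 52989326 to 53094779) encodes α2 of the collagen receptor α2β1. Its 3 F0 libraries were at 58.2, 56.7 and 57.9 CPM and its F2 libraries at 89.3, 87.3 and 88.1. The libraries of each group lay close together and far from the other group. ITGA2 rose 1.53-fold (log2 fold change 0.61, SE 0.05, edgeR adjusted p = 8.11e-08), and the log2 fold change stayed between 0.60 and 0.62 when any 1 library was left out. It had the smallest adjusted p of the 9.

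ITGA3 (ENSG00000005884, chromosome 17, 50055968 to 50090481) encodes α3, which with β1 binds laminin-332 and laminin-511. It was the most abundant of the 10, at 350, 317 and 314 CPM in F0 and 386, 434 and 356 in F2. The lowest F2 library was only just above the highest F0 library. The mean went from 327 ± 20.3 to 392 ± 39.3 CPM (log2 fold change 0.26, SE 0.06, edgeR adjusted p = 0.00463), and the log2 fold change ran from 0.19 to 0.33 with single libraries left out.

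ITGA6 (ENSG00000091409, chromosome 2, 172427354 to 172506282) encodes α6, a laminin-binding subunit that pairs with β1 or β4. Levels were 73.0, 84.2 and 85.8 CPM in F0 and 107, 106 and 114 in F2. The F2 libraries were all higher. The rise was 1.35-fold (log2 fold change 0.43, SE 0.06, edgeR adjusted p = 4.85e-05). An unnamed antisense gene, AC078883.1, covers 52 bases (2.4%) of the ITGA6 3′ UTR and had 5, 18 and 8 counts in F0 and 20, 22 and 15 in F2, a small number beside the 1237 to 1792 counts of ITGA6. For the other 9 subunits, no exon of another annotated gene overlapped the 3′ UTR.

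ITGA5 (ENSG00000161638, chromosome 12, 54395261 to 54419460) encodes α5 of the fibronectin receptor α5β1. Its libraries were at 43.2, 40.9 and 36.9 CPM in F0 and 48.3, 47.9 and 44.2 in F2. The groups did not overlap, but the lowest F2 and highest F0 libraries were close. ITGA5 passed the threshold narrowly (log2 fold change 0.21, SE 0.07, edgeR adjusted p = 0.0409). It passed in 2 of the 6 leave-one-out fits, in each of which 1 library was dropped, and not with DESeq2 (adjusted p = 0.07) or with library size alone (log2 fold change 0.12, adjusted p = 0.212).

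ITGB4 (ENSG00000132470, chromosome 17, 75721328 to 75757818) encodes β4, whose long cytoplasmic tail binds plectin in hemidesmosomes and which pairs only with α6. It was low, at 8.56, 8.06 and 8.05 CPM in F0 and 13.7, 12.7 and 12.9 in F2. The groups were well apart for so low a level. ITGB4 rose 1.59-fold (log2 fold change 0.67, SE 0.11, edgeR adjusted p = 2.59e-04), and the log2 fold change was between 0.64 and 0.70 with single libraries left out. GALK1, on the opposite strand, overlaps the ITGB4 gene, with its span but no exon over the ITGB4 3′ UTR. It had 362, 382 and 388 counts in F0 and 339, 320 and 347 in F2. GALK1 did not pass (log2 fold change −0.06, edgeR adjusted p = 0.656), and its part in the ITGB4 counts was not tested.

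These rises changed the balance of the pairs by different amounts. The sum of ITGA1, ITGA2, ITGA3, ITGA5, ITGA6 and ITGAV was 545 ± 14.2 CPM (SD, n = 3) in F0 and 674 ± 36.7 in F2. Per ITGB1 transcript, their sum was 2.47 ± 0.0664 in F0 and 2.88 ± 0.173 in F2, without overlap. Within this sum ITGA2 went from 10.6% ± 0.216 to 13.1% ± 0.784 and ITGAV from 6.48% ± 0.567 to 5.09% ± 0.287, both without overlap. ITGA3 (60.01% ± 2.13 and 58.1% ± 2.65) and ITGA6 (14.9% ± 1.64 and 16.2% ± 1.52) overlapped between groups. There were 3.84 ± 0.175 ITGB1 transcripts per ITGA2 transcript in F0 and 2.65 ± 0.0583 in F2, and 2.75 ± 0.372 and 2.15 ± 0.0710 per ITGA6 transcript. ITGB4 per ITGA6 transcript was 0.102 ± 0.0130 and 0.120 ± 0.00730, which overlapped, as both genes rose. With 3 libraries against 3, an exact permutation test of a single ratio cannot go below p = 0.1, and no test of these ratios was run.

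By mean level the order in F0 was ITGA3, ITGB1, ITGB5, ITGA6, ITGA2, ITGA5, ITGAV, ITGB4, ITGB3 and ITGB6, and it was the same in F2. In F0, ITGA5 (36.9 to 43.2 CPM) and ITGAV (32.7 to 36.6) were neighbours whose libraries lay close to each other without overlapping. In F2 ITGA5 (44.2 to 48.3) and ITGAV (32.9 to 35.1) were further apart.

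**Figure D3:**
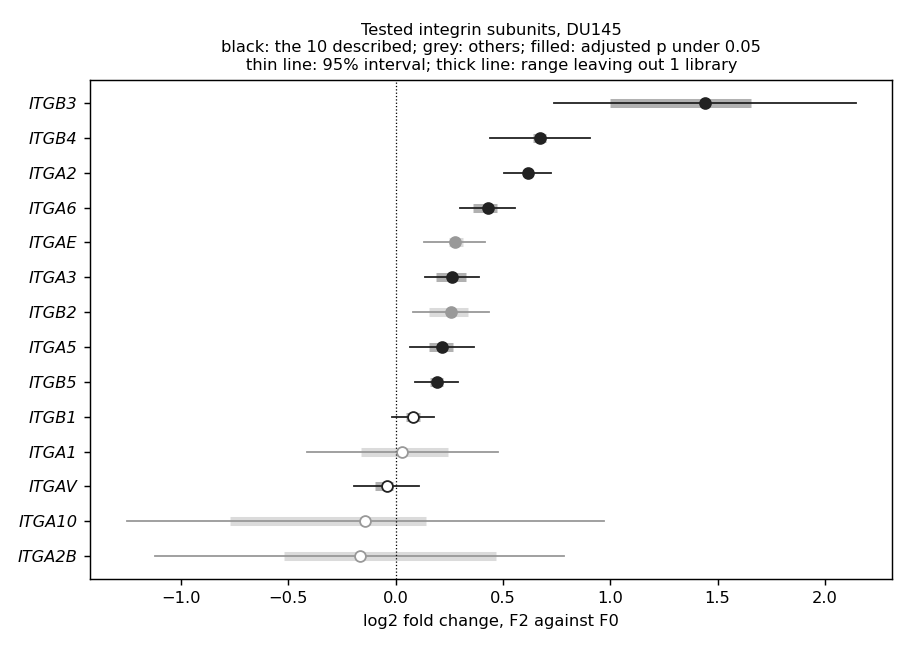
Log2 fold change of F2 against F0 (horizontal axis) for the 14 tested integrin subunits, with a thin line for the 95% interval of the edgeR fit and a thick line for the range when 1 library is left out. Black points are the subunits described and grey points the other subunits, and filled points passed the threshold. ITGB3 is farthest right with the widest interval of the black points, and ITGAV and ITGB1 are the 2 open black points.

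Of the 16 other integrin subunits, 5 could be tested, and 2 of these rose (40%, beside 9.49% of all tested genes called higher). ITGAE, the αE subunit of the lymphocyte receptor for E-cadherin, went from 34.2 ± 1.64 to 41.4 ± 0.365 CPM (log2 fold change 0.27, edgeR adjusted p = 0.00706), while its partner ITGB7 had at most 4 counts in any library. ITGB2, the β subunit of leukocyte integrins, went from 41.5 ± 3.86 to 49.6 ± 6.27 CPM with overlapping libraries (log2 fold change 0.26, edgeR adjusted p = 0.0405). Its α partners ITGAL and ITGAD were at 0 in every library, ITGAX had at most 4 counts, and ITGAM had 11 counts in replicate 1 of F0 and at most 2 elsewhere. ITGB2 passed in 2 of the 6 leave-one-out fits and not with DESeq2 (adjusted p = 0.0526). The call for ITGAE was lost with library size alone (adjusted p = 0.0502), as was that for ITGB2 (adjusted p = 0.164). ITGA1, another collagen-binding α subunit (3.39 and 3.47 CPM, log2 fold change 0.03), ITGA10 (−0.14) and ITGA2B (−0.17) did not pass.

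Calls among the ligands went in both directions. Over all tested genes 9.49% were called higher and 8.67% lower, 18.2% in either direction. Of 12 laminin chains, 9 were tested, of which 3 rose and 2 fell, with a median log2 fold change of −0.02. LAMB3, the β chain of laminin-332, a ligand of α3β1 and α6β4, rose from 212 to 271 CPM (log2 fold change 0.36, edgeR adjusted p = 1.09e-04). The α chain of the same trimer, LAMA3, fell from 19.3 to 14.6 CPM (−0.40, adjusted p = 0.0115), a call kept in 4 of the 6 leave-one-out fits. LAMB1 rose from 22.5 to 29.8 CPM (0.41, adjusted p = 9.20e-04) and LAMC1, the γ chain of most other laminins, fell from 129 to 107 CPM (−0.28, adjusted p = 3.68e-04).

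Of 15 collagen genes, 9 were tested, and 1 rose and 1 fell (median log2 fold change 0.10). These calls were 22.2% of the tested collagens, near the 18.2% of all tested genes. The one that rose was COL17A1, the transmembrane collagen of hemidesmosomes, from 6.67, 6.48 and 7.10 CPM in F0 to 13.2, 14.0 and 13.8 in F2. The groups were far apart (log2 fold change 1.01, SE 0.11, edgeR adjusted p = 3.19e-06). COL6A2 fell from 23.7 to 18.4 CPM (−0.37, adjusted p = 0.0205) and passed in 3 of the 6 leave-one-out fits. Of 22 RGD-containing and other ligands, 15 were tested, 3 rose and 2 fell (median 0.14, 33.3% called). NID1, the linker of laminin and collagen IV, went from 8.75 to 12.4 CPM (0.50, adjusted p = 0.0045), CCN1, a matricellular ligand of αV integrins, from 313 to 382 CPM (0.29, adjusted p = 9.36e-04), and TGFBI from 172 to 194 CPM (0.17, adjusted p = 0.0102). TGFBI passed in 4 of the 6 leave-one-out fits and not with library size alone (0.08, adjusted p = 0.187). THBS1, thrombospondin 1, fell from 26.3 to 20.1 CPM (−0.38, adjusted p = 0.00822), a call kept in 5 of the 6 leave-one-out fits. FN1, the ligand of α5β1, is below the level at which genes were to be named and was chosen after its values were seen. It went from 4.88 to 3.40 CPM (−0.52, adjusted p = 0.0406), a call lost whenever 1 library was left out.

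Of 42 genes for proteins that act on the cytoplasmic tails, 38 were tested, of which 6 rose, 5 fell and 27 did not pass. The median log2 fold change was 0.04, and 28.95% were called, beside 18.2% of all tested genes. FERMT1, kindlin-1, which activates β subunits together with talin, rose from 54.0 ± 0.593 to 70.3 ± 3.59 CPM (0.38, edgeR adjusted p = 1.09e-04). ACTN1, the actin cross-linker α-actinin 1, rose from 834 to 980 CPM (0.23, adjusted p = 7.69e-04) and VASP from 93.6 to 107 CPM (0.19, adjusted p = 0.0155). VASP passed in 5 of the 6 leave-one-out fits and not with library size alone (0.10, adjusted p = 0.185). The largest fall past the threshold was that of TNS3, tensin 3, an adaptor that binds β tails, from 26.7 ± 1.64 to 15.3 ± 1.996 CPM (−0.80, adjusted p = 8.78e-06). KANK2 fell from 51.8 to 40.8 CPM (−0.34, adjusted p = 0.00448), RSU1, of the ILK complex, from 105 to 87.0 CPM (−0.28, adjusted p = 4.64e-04), and NCK2 from 16.0 to 12.7 CPM (−0.33, adjusted p = 0.0346). NCK2 passed in 2 of the 6 leave-one-out fits and not with DESeq2 (adjusted p = 0.0685). The core components TLN1 (0.05, adjusted p = 0.601), PXN (0.04), ILK (0.10), VCL (0.10) and PTK2 (−0.09) did not pass and were named after their values were seen.

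Of 18 inhibitors and traffic proteins of integrins, 16 were tested, 2 rose and 2 fell. At 25%, the share called was not far from the 18.2% of all tested genes. NUMB, an endocytic adaptor for β1 and β3 integrins, rose from 54.6 to 67.0 CPM (log2 fold change 0.30, edgeR adjusted p = 0.0013), and EEA1, an early endosome protein, from 67.6 to 77.9 CPM (0.21, adjusted p = 0.0181). EEA1 passed in 3 of the 6 leave-one-out fits and not with library size alone (0.12, adjusted p = 0.157). RAB11FIP1, the Rab-coupling protein that returns integrins to the surface, fell from 121 ± 4.59 to 83.4 ± 2.22 CPM (−0.53, adjusted p = 3.85e-07). CAV1, caveolin-1, fell from 487 to 414 CPM (−0.23, adjusted p = 3.74e-04).

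Among 18 genes of hemidesmosomes and of lateral partners of integrins in the membrane, 17 were tested, 7 rose and 3 fell (median log2 fold change 0.10). The share called was 58.8%, beside 18.2% of all tested genes. COL17A1, given above, counts here too. PLAUR, the urokinase receptor, which binds vitronectin and associates with αV and β1 integrins, was at 157, 157 and 151 CPM in F0 and 241, 294 and 220 in F2. The groups were clearly apart, with replicate 2 of F2 the highest, as for ITGB3 and ITGA3. Its log2 fold change was 0.70 (SE 0.07, edgeR adjusted p = 1.02e-06). CD47, the integrin-associated protein that partners β3, rose from 60.04 to 80.9 CPM (0.43, adjusted p = 1.10e-05) and the tetraspanin CD63 from 1108 to 1485 CPM (0.42, adjusted p = 1.14e-06). LGALS3 fell from 49.5 to 39.5 CPM (−0.33, adjusted p = 9.76e-04), and SLC3A2, the CD98 heavy chain that binds β1 tails, from 285 to 238 CPM (−0.26, adjusted p = 6.68e-04). The plakins that join β4 to keratin in hemidesmosomes, PLEC (0.10, adjusted p = 0.229) and DST (0.06, adjusted p = 0.351), did not pass and were named after their values were seen. CD151, the tetraspanin partner of the laminin receptors, also named after its values were seen, rose from 219 to 250 CPM (0.19, adjusted p = 0.00645). The CD151 call was kept in 5 of the 6 leave-one-out fits.

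Over the 7 lists of other subunits, ligands and partners, 108 of 142 genes were tested. Of these, 23 rose (21.3%) and 15 fell (13.9%), beside 9.49% and 8.67% of all genes. The lists too were chosen with earlier results known, so these shares are descriptive. With library size alone 15 rose and 28 fell, so the balance of rises and falls in the surrounding genes depended on the scaling. The subunits themselves had 0 falls under either scaling.

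**Figure D4:**
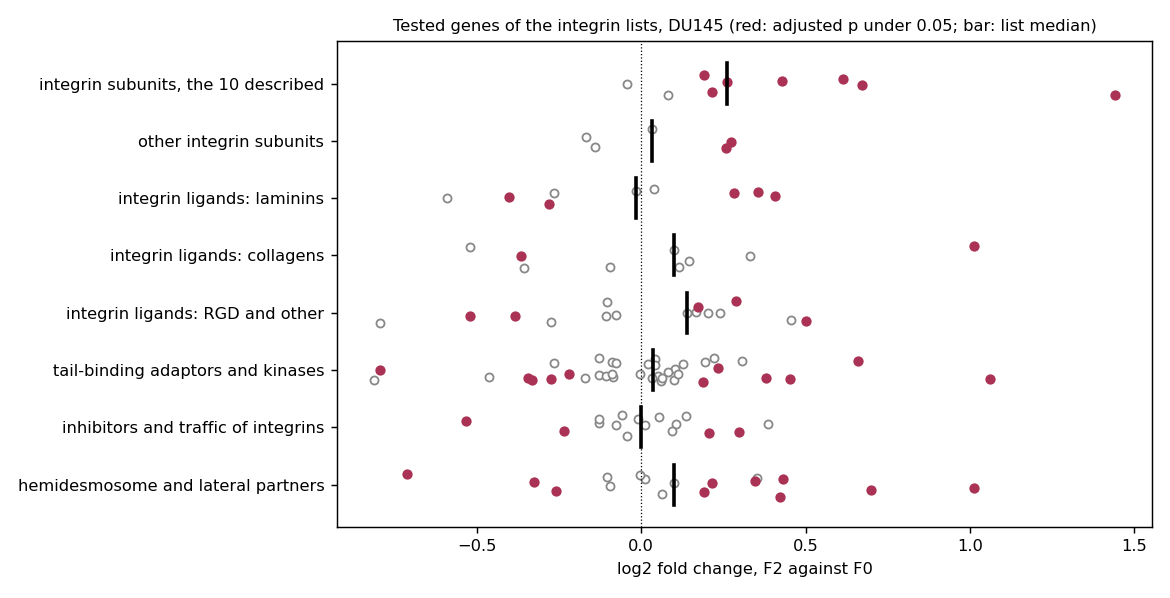
Log2 fold change of F2 against F0 (horizontal axis) for each tested gene of the 10 described subunits and of the 7 lists around them, with red points for genes past the threshold and a bar for the median of each list. The red points of the subunits described are all to the right of 0, while those of the ligand, adaptor, traffic and partner lists lie on both sides.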

How the data were processed

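The 6 DU145 QuantSeq libraries (3 F0, 3 F2) were read from the raw counts per gene that the authors deposited, without normalization. The submitters' processing notes name STAR 2.5.2a, HTSeq 0.6.0 and GRCh38, while strand handling and the annotation are not given in the sources used here. Reads outside genes (9.60 to 11.9% of uniquely placed reads), ambiguous reads (1.36 to 1.50%) and 92 spike-in rows, all at 0, stayed out of library sizes. Of 60107 identifiers, 56104 matched a symbol and 56531 GENCODE 29. Columns that matched no sample numbered 0. A second deposited table, of a rat cell line, was not used, since the part described is F2 against F0 in the human table.

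Low counts were removed by filterByExpr (at least 10 counts, 15 in total), TMM factors were computed, and F2 was set against F0 by the quasi-likelihood test of edgeR 4.0.16 (limma 3.58.1, R 4.3.3), two-sided and without covariates. The script was tested on simulated counts. Alternatives were DESeq2 1.42.0, median-ratio factors, library size alone, no mitochondrially encoded genes, 2 other count filters, a replicate block and each library left out. PCR duplicates could not be removed, and intervals on counts cover counting error only. No pair of replicates agreed within sampling noise.

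All 10 members and every tested other subunit are named. From each other list, genes past an adjusted p of 0.05 with a mean of at least 10 CPM are named, at most 4 in each direction, largest change first. Marker lists are given by counts. Some genes of the lists are not reported here. The members, the lists and the alternatives were chosen with earlier results of these data known.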

Additional observations from a re-analysis of the deposited data

How the results depend on the processing

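Of the 9 tested subunits, 7 were called higher with median-ratio factors, with the other filters, without mitochondrially encoded genes and with the replicate block, 6 with DESeq2 and 5 with library size alone, and 0 were lower in any of these fits. With single libraries left out, 6 or 7 were higher and 0 lower. ITGB3, ITGA2, ITGA3, ITGA6 and ITGB4 passed in all 6 of those fits. Library size alone gave 832 genes higher and 2805 lower, with a shift of the median of −0.0897, and 15 and 28 genes of the 7 lists. It turned the sign of ITGB1 (−0.0079) and ITGA1 (−0.0586), neither past the threshold. Leaving out 1 library gave 909 to 1377 genes higher and 761 (without replicate 2 of F0) to 1244 lower, 803 without replicate 1 of F2, and 17 to 25 higher and 9 (without replicate 1 of F2) to 15 lower in the lists. ITGA1, ITGA10 and ITGA2B changed sign within these fits: ITGA1 ranged from −0.16 to 0.24, ITGA10 from −0.77 to 0.14 and ITGA2B from −0.52 to 0.47. The causes were not tested. ITGA10 and ITGA2B had no value with at least 10 counts in every library.

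Whether replicate numbers pair the samples is not known. Deviations from the group means correlated at 0.0101, −0.0102 and 0.0291 for equal numbers, and 3 libraries a group cannot settle it. The replicate block gave 1501 genes higher and 1366 lower, 27 and 16 in the lists, and the same 7 subunits, with a log2 fold change of 0.62 for ITGA2 and 1.41 for ITGB3, and it changed no call among the subunits.

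Depth limits ITGB6 and ITGB8, which a count test could not reach, and leaves ITGB3 resting on 13 to 63 counts a library.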

Other observations

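Some integrin-linked genes past the threshold lay below the level set for naming and are given as values chosen after they were seen. LPXN, leupaxin, a paxillin family adaptor, went from 2.39 to 4.99 CPM (log2 fold change 1.06), TGFB1I1, another paxillin family member, from 7.97 to 10.9 CPM (0.45) and TNS2 from 3.58 to 5.65 CPM (0.66), while its relative TNS3 fell. TSPAN15, a tetraspanin that partners the protease ADAM10, fell from 9.05 to 5.53 CPM (−0.71) with overlapping libraries. With single libraries left out, LPXN passed in all 6 fits, TNS2 in 5, and TGFB1I1 and TSPAN15 in 3 each. The antisense transcript ITGB2-AS1 had 41, 36 and 39 counts in F0 and 65, 51 and 65 in F2 (0.75, edgeR adjusted p = 0.0123). Since the handling of strand is not stated, its counts and those of ITGB2 cannot be told apart.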
